A study of Mus musculus with 78 samples.

Results

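The genes described here encode 9 proteins of the light response of cones, the photoreceptors of day and colour vision: the opsins Opn1sw and Opn1mw, the transducin subunits Gnat2, Gnb3 and Gngt2, the phosphodiesterase subunits Pde6c and Pde6h, the channel subunit Cngb3 and the arrestin Arr3. They were chosen by name, and each is represented by 1 probe set with that single gene symbol, so that 9 of 22347 probe sets and 9 of 19301 genes were followed across the whole series. The series measured cells sorted by fluorescence from adult mouse retinas of 22 transgenic lines, 200 cells per sample, on 78 whole-transcript arrays in 26 sets of 3 biological replicates. Both cone lines were set against the rod line and against the 19 lines of other retinal cells.

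The cone lines were Tg(Chrnb4-EGFP)1Gsat, called Chrnb4 below after its transgene, and d4-Cre × Rosa26-LSL-RFP, called d4, with 3 arrays each. The rod line was b2-Cre × Rosa26-LSL-RFP, with 3 sets named 1st, 2nd and single, or 9 arrays. The 4 bipolar lines were B6Cf1-Tg(mGlur6-Cre)BR crossed to Rosa26-LSL-RFP (ON bipolar cells, called mGluR6), B6:FVB-Tg(Pcp2-EGFP)2Yuza (rod bipolar cells, Pcp2), Tg(Lhx4-EGFP)199Gsat (Lhx4) and a Kcng4-CreERT2 line, whose Cre depends on tamoxifen, crossed to the same red reporter (Kcng4). The other inner retinal lines were 9 amacrine lines (Arc, Igfbp2, Rgs5, Crh, ChAT, Chrna3, Fam81a, Fbxo32 and Ier5), 4 ganglion cell lines (PV, Drd4, Grik4 and Opn4), the horizontal cell line Gja10 and the microglia line Csf2rb2, each marked by GFP or RFP under the gene in its name or by Cre and a reporter. A sorted population is thus defined by the cells that carry the fluorescent marker of its line, through 1 transgene or through Cre and a reporter. All arrays carry the same label of a mixed FVB/N-Swiss Webster and C57BL/6J background, and the growth protocol says that mice from 1 repository carried, before they were backcrossed, a recessive mutation that makes photoreceptors degenerate.

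In a cone, light turns an opsin into an activator of the G protein transducin, whose alpha subunit Gnat2 is held by the beta and gamma subunits Gnb3 and Gngt2. Activated Gnat2 releases the catalytic phosphodiesterase subunit Pde6c from its inhibitor Pde6h, cGMP falls, and the cyclic nucleotide-gated channel, of which Cngb3 is the beta subunit, closes. The cone arrestin Arr3 binds the active opsin and ends the signal. Rods run the same cascade with a separate set of genes, and most mouse cones make both opsins, in shares that vary across the retina.

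Promoter sequences are shown because the 9 genes were high in the same 2 lines, and 5 of the 9 had an entry in the RefSeq table of windows from 250 bases before to 50 bases after the gene start (build GRCm38.p6): Opn1sw, Opn1mw, Gnat2, Pde6h and Arr3. Gnb3, Gngt2, Pde6c and Cngb3 are named only. The windows were searched on both strands for TAATCC, the site type of the photoreceptor homeodomain factor Crx, for AGGTCA, the core element bound by nuclear receptors, and for TATAAA, the TATA box, and letters in capitals mark a match. Those 3 windows that held a match are these, each read 5′ to 3′ on the strand of its gene.
Opn1sw, chr6:29380464-29380763, minus strand: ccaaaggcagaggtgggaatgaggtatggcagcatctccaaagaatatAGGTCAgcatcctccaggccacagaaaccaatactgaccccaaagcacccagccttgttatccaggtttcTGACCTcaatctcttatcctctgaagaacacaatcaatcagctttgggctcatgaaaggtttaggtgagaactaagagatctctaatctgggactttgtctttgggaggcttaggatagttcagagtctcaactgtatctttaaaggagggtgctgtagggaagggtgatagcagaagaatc
Opn1mw, chrX:74127216-74127515, plus strand: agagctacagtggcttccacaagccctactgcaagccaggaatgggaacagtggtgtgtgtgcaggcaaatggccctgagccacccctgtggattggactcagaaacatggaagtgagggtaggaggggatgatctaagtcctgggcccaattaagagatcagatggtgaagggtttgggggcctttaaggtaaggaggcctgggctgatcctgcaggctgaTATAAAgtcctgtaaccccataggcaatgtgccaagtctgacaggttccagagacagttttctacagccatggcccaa
Gnat2, chr3:108092816-108093115, plus strand: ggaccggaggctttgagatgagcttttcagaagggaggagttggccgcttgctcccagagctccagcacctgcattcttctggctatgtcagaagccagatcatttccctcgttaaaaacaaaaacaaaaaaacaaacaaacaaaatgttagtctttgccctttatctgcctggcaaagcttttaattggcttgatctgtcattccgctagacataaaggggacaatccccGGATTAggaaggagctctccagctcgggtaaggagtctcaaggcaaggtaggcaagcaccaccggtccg

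The Opn1sw window held AGGTCA at position -202 from the gene start and, on the opposite strand, at -132. Opn1mw held TATAAA at -28, and Gnat2 held TAATCC on the opposite strand at -19. Each motif was found in 1 of the 5 windows. Among all 32851 windows of the table, TAATCC was found in 7.06%, AGGTCA in 16.3% and TATAAA in 13.6%, so no motif was shared by the genes in these windows.

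Values are intensities on a linear scale, normalised by the authors so that all 78 arrays share 1 distribution, whose median is 9.01. On most arrays the lowest values stand in the order of the probe set identifiers, up to 3.99 at most, which was taken as a floor. Differences are log2, on the deposited values. Where raising low values to the floor changes a difference by more than 1.5-fold, the difference with the floor is given as a lower bound ("at least"), which holds only if no signal was subtracted before deposit. A gene was called when its adjusted p from limma was below 0.05 and its difference was at least 1. Array agreement within a set was lowest in Crh (r = 0.7) and also below 0.8 in Chrnb4, Lhx4, Chrna3 and Drd4. In sorted populations of this kind, fewer cells of a type and less RNA per cell cannot be told apart.

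The first comparison set the cone lines against the rod line, and all 9 genes were higher in cones, with a median difference of 9.54 log2 units (7.45 with the floor) against 0.04 over all genes tested. Of all genes 6.02% were called higher and 10.7% were called in either direction. For each of these genes all 6 cone arrays lay above every rod array. The shares given are of calls, and none is given for such separation over all genes.

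Opn1sw, the short-wavelength opsin (probe set 10543591), had 4171, 2236 and 3572 units in Chrnb4 and 3972, 3572 and 3695 in d4, while 8 of the 9 rod arrays were at or below the floor and the third array of b2 single stood at 134. Cone arrays were therefore far above the rod arrays, and 1 rod array stood apart from the other 8. The difference was at least 9.20 log2 units, or 589-fold (15.54, SE 2.20, as deposited, adjusted p = 1.4e-07, higher in 6 of 6 arrays).

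Opn1mw, the middle-wavelength opsin (10600317), had 3217, 3382 and 2505 units in Chrnb4 and 3217, 2618 and 2618 in d4. Rod arrays were at or below the floor except for 31.1 and 14.4 in b2 2nd. Both opsins were thus high in every cone array, and the difference of Opn1mw from rods was at least 8.97 (14.69, SE 1.73, as deposited, adjusted p = 1.2e-09).

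Gnat2, the cone transducin alpha subunit (10495259), reached 2437, 1672 and 2847 units in Chrnb4 and 2796, 2699.8 and 2699.8 in d4, and exceeded the floor in 1 rod array, b2 2nd, at 14.7. The difference was at least 9.07 (14.41, SE 1.30, as deposited, adjusted p = 1.8e-13). Gnb3, the beta subunit (10547858), had 1104, 698 and 1126 units in Chrnb4 and 1312, 1312 and 1300.4 in d4, against a lowest value of 7.82, a median of 40.8 and a highest of 85.3 in the 9 rod arrays. Unlike the opsins and Gnat2, Gnb3 lay above the floor in every rod array, and the groups still did not overlap. Its difference, 5.14 (SE 0.72, adjusted p = 1.1e-07), is the same with the floor.

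Gngt2, the gamma subunit (10380571), had 411, 597 and 456 units in Chrnb4 and 571, 562 and 504 in d4, and at most 7.65 in any rod array, at least 6.75 log2 units higher in cones (8.17, SE 0.59, as deposited). Pde6c, the catalytic phosphodiesterase subunit (10462887), had 309, 234 and 231 units in Chrnb4 and 709, 894 and 843 in d4, and all 9 rod arrays were at or below the floor, with 3.03 the highest. The difference of Pde6c was at least 6.83 (9.54, SE 0.56, as deposited, adjusted p = 1.6e-20). No set outside the cones had a Pde6c mean above the median of all values. Pde6c was thus tested only because of its cone values, so its p adds no support. Both genes were near or below the floor throughout the rod line.

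Pde6h, the inhibitory phosphodiesterase subunit (10542407), was at 4902, 4902 and 4552 units in Chrnb4 and 3820.5, 3695 and 3477 in d4. In rods it ranged widely: 8 of 9 arrays exceeded the floor, with a median of 23.0 and a highest value of 229 in b2 2nd. The difference was at least 7.45 (8.27, SE 1.24, as deposited, adjusted p = 5.0e-07).

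Cngb3, the channel beta subunit (10503464), had 87.4, 26.7 and 90.1 units in Chrnb4 and 121, 172 and 210.0 in d4, against 1.67 to 5.44 in rods, a difference of 4.81 (SE 0.25, adjusted p = 1.5e-22). The lowest cone array was still several times the highest rod array. Cnga3, the alpha subunit of the same channel, could not be followed, since no set mean passed the median: it had 7.37 to 10.2 units in Chrnb4, 5.93 to 9.27 in d4 and 4.62 to 7.71 in rods. Arr3, the cone arrestin (10600994), had 1198, 1121 and 1108 units in Chrnb4 and 1495, 1300.4 and 1495 in d4, and all rod arrays were below the floor. Its difference was at least 8.32 (15.01, SE 1.14, as deposited, adjusted p = 3.0e-16).

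**Figure D1:**
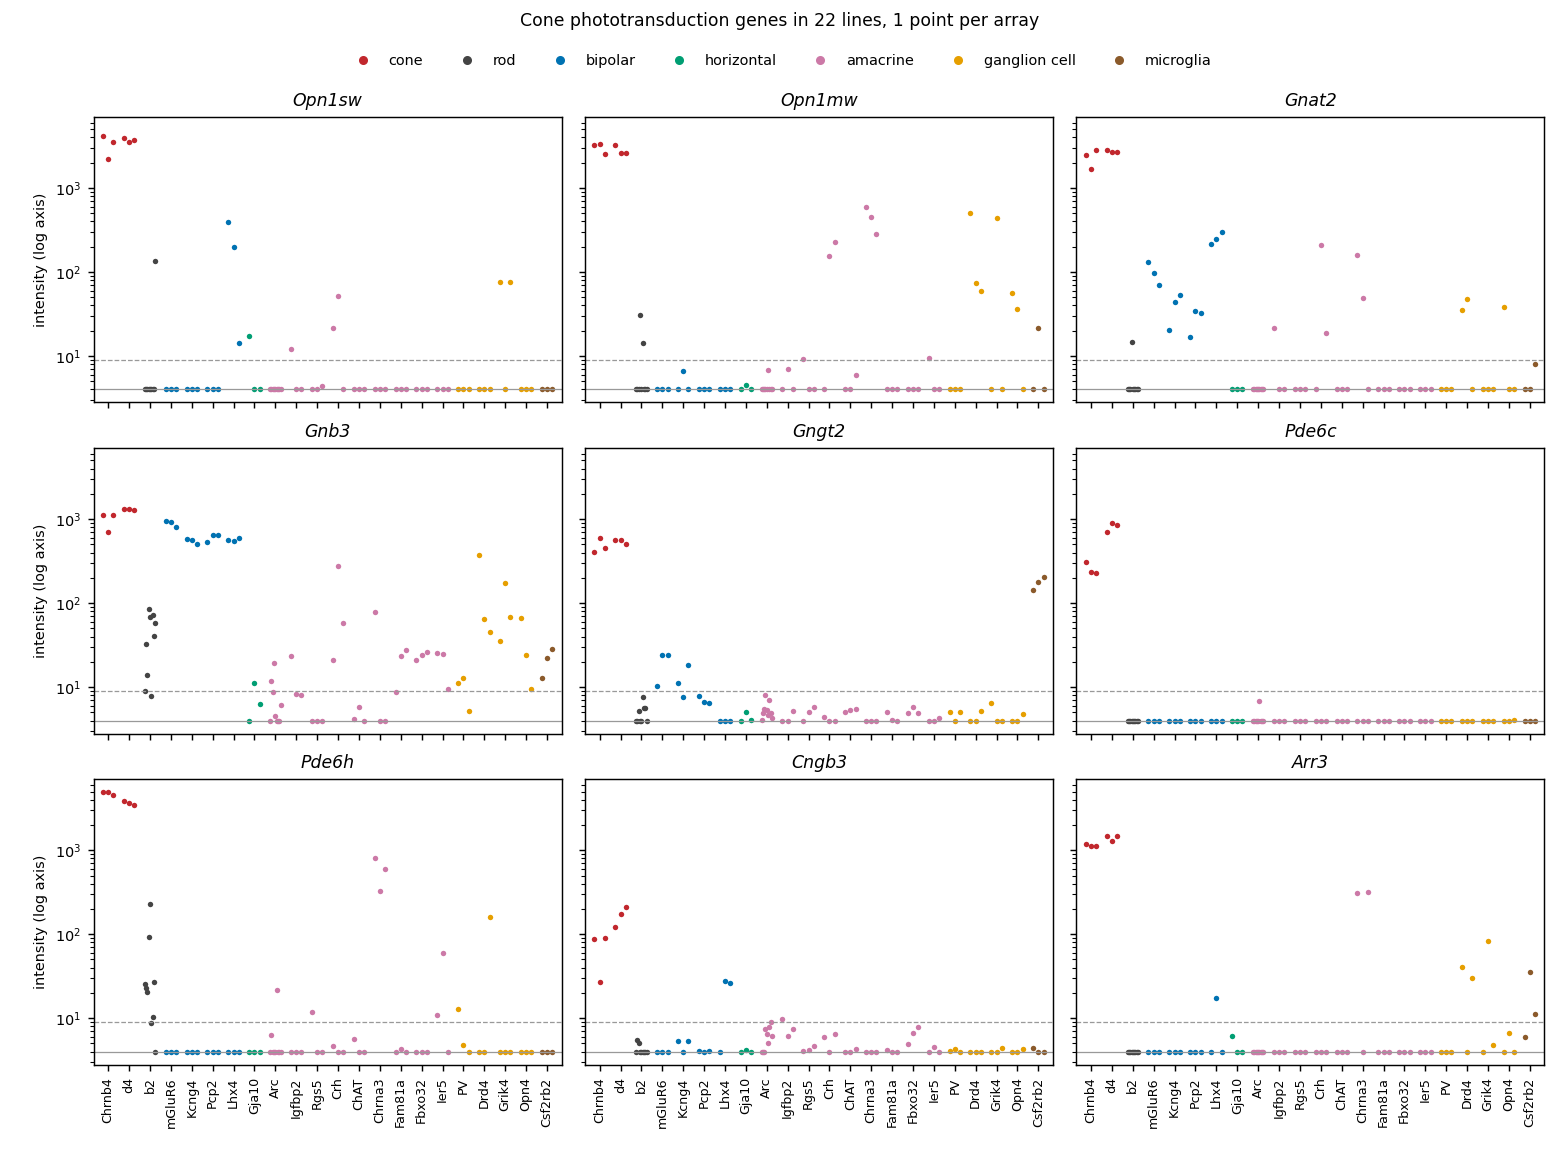
Intensity on a log axis of each of the 9 genes, 1 panel per gene and 1 point per array, in 22 lines coloured by cell class; values below the floor of 3.99 (solid line) are drawn on it, and the dashed line is the median of all values, 9.01. The 6 cone arrays are highest for 7 genes, whereas the bipolar lines reach 943 units for Gnb3 and Lhx4 reaches 28.1 for Cngb3, above the lowest cone array of each gene.

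Each cone line was also compared with the rod sets nearest to it. Chrnb4 and b2 1st carry the same batch label, 1, and in that pair all 9 genes were higher in Chrnb4, with 4.62% of all genes called higher. Against b2 2nd and b2 single, all 9 were higher in d4, which has no batch label, with 7.89% of all genes called higher. Opn1sw lost its call in both contrasts, at the same differences, when 4 inner lines of low array agreement were left out of the fit (adjusted p = 0.23 in Chrnb4 and 0.17 in d4). With the floor, the smallest of the 18 differences was 3.64 (Cngb3, Chrnb4 minus b2 1st) and the largest was 9.66 (Opn1sw, Chrnb4 minus b2 1st).

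Rod counterparts of the cascade were followed as a list of 9 measured genes. Of these, 6 were lower in cones (4.69% of all genes were called lower): Gnat1, Gnb1, Pde6a, Pde6b, Cnga1 and Cngb1. Gnb1, the transducin beta subunit of rods, had 0.728 to 1.65 units in Chrnb4 and 0.489 to 0.646 in d4, against 922 to 1884 in the rod arrays, and fell by at least 8.38 log2 units (difference with the floor -8.38; -10.64, SE 1.08, as deposited, adjusted p = 1.3e-11). The differences of Gnb3 and Gnb1 thus ran in opposite directions. Pde6b, a catalytic subunit of the rod enzyme, had at most 1.55 units in any cone array against at least 577 in rods.

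The other 3 counterparts were not called. Sag, the rod arrestin, had 2152 to 2744 units in Chrnb4 and 2296 to 3011 in d4, against 1957 to 2950.4 in rods, a difference of -0.06 (SE 1.21, adjusted p = 0.98), and its groups overlapped throughout. Pde6g, the rod inhibitory subunit, had 241 to 430.0 units in Chrnb4 and 248 to 305 in d4, against 418 to 622 in rods (-0.86, SE 0.89, adjusted p = 0.54), and Gngt1, the rod gamma subunit, 243 to 485 and 408 to 489.8 against 996 to 1318 (-1.51, adjusted p = 0.41). Every cone array of Gngt1 lay below every rod array, although the gene was not called, while the groups of Pde6g overlapped. High values of these rod genes therefore stood beside high values of Arr3, Pde6h and Gngt2 in every cone array, and whether they came from the cones or from rod RNA in the sorted cells was not tested. The list of 9 rod markers summed to 3199 to 3533 units in Chrnb4 and 2961 to 3825 in d4, against 7158 to 10177 in rods, and 6, 4 and all 9 of them had means above the median in these lines. Gnat1, the rod alpha subunit, was at 0.217, 227 and 332 units in the Chrnb4 arrays and at or below 0.194 in d4, and Pde6a exceeded the floor in 1 of the 6 cone arrays, at 4.79.

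**Figure D2:**
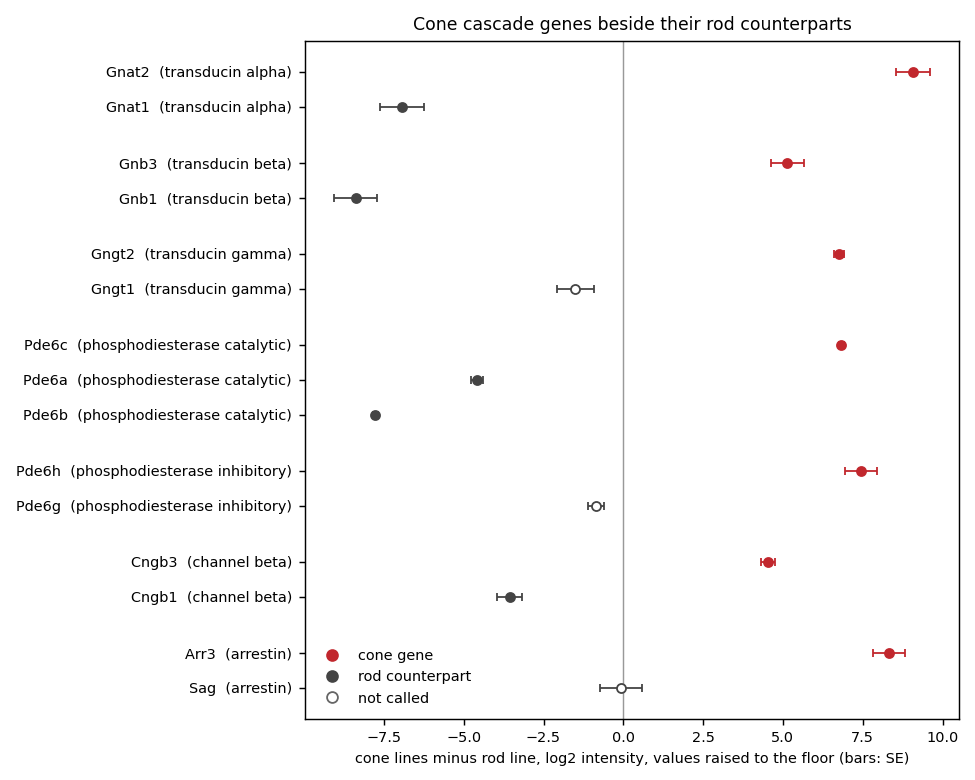
Difference between the cone lines and the rod line in log2 intensity, with values raised to the floor, for 7 cone genes (red) and 8 rod counterparts (grey) grouped by the part they play; bars are SE and open points were not called. All 7 cone genes lie to the right of 0, and Gngt1, Pde6g and Sag lie between -1.51 and -0.06.

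Of 14 other genes of the cascade and its calcium feedback, 1 was higher in cones, 1 was lower and 12 were not called, counts near the shares over all genes (6.02% higher and 4.69% lower). Slc24a2, a calcium exchanger of cones, had 7.09 to 8.02 units in Chrnb4 and 13.9 to 17.2 in d4 against 3.85 to 6.28 in rods (1.13, SE 0.17, adjusted p = 1.1e-06). By cone line, it was called higher in d4 against the later b2 sets and not in Chrnb4 against b2 1st. Slc24a1, its rod relative, had a difference of at least -3.00 (-4.48, SE 0.54, as deposited). Guca1a, the activator of guanylate cyclase, differed by 0.14 (SE 1.59), and Rcvrn, the calcium sensor recoverin, by 0.10 (SE 0.80).

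Among 12 photoreceptor transcription factors, 2 were higher in cones and 1 was lower, where 6.02% of all genes were called higher and 4.69% lower. Rxrg, a retinoid X receptor of cones, had 44.9 to 96.8 units in Chrnb4 and 120.1 to 198 in d4 against at most 8.53 in rods (4.36, SE 0.22, adjusted p = 7.1e-23). Sall3, a zinc finger factor, was higher by 1.24 (SE 0.25), and Nrl, the factor that directs rod fate, was lower (-3.25, SE 0.44). By cone line, Sall3 was called higher in Chrnb4 against b2 1st and not in d4 against the later b2 sets. Thrb, the thyroid hormone receptor that controls the choice of opsin, differed by 0.71 log2 units (SE 0.16, adjusted p = 0.0007), short of the fold required for a call. Of 8 cone proteins outside the cascade, Kcne2, Fabp7, Otop3 and Ccdc136 were higher, against the same 6.02% over all genes. Slc6a13, Cdh11, Clca3a2 and Opn3 were not called. Like the other lists, this list was chosen with earlier results of these data known, so its count is no independent support. Fabp7, a fatty acid-binding protein, had 526 to 654 units in Chrnb4 and 513 to 557 in d4 against 1.80 to 9.96 in rods.

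The second comparison asked whether the 2 cone lines differed. For 7 genes the difference was not called and lay between -0.46 (Gnb3) and 0.39 (Pde6h), but the intervals were wide: that of Gngt2 ran from -2.00 to 1.64 and that of Arr3 from -3.85 to 3.20 (95%). Cngb3 was the single call, -1.46 (SE 0.39, adjusted p = 0.015), where 3.76% of all genes were called lower in Chrnb4. The 3 Chrnb4 arrays, at 87.4, 26.7 and 90.1 units, lay below the 3 d4 arrays, at 121, 172 and 210.0. Replicate 2 of Chrnb4, whose Opn1sw, Gnat2 and Gnb3 were also the lowest of the 6 cone arrays, bears on this call: without it the difference was -0.88 (adjusted p = 0.21). Without replicate 2 or 3 of d4 it was -1.42 (adjusted p = 0.053) or -1.28 (adjusted p = 0.085).

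Pde6c also separated the arrays of the 2 lines: it had 309, 234 and 231 units in Chrnb4 against 709, 894 and 843 in d4, a difference of -1.67, with no overlap. On the deposited values it was not called (SE 0.87, adjusted p = 0.28), while with values raised to the floor it was (SE 0.12, adjusted p = 3.1e-16, with 3.69% of all genes then called lower). The SE of either fit is shared with arrays in which Pde6c was below the floor. Raised to the floor these arrays all hold 1 value, which shrinks the SE. The SE of 0.12 and its p therefore do not measure how the 3 arrays of each cone line vary. Of the other lists, Rxrg (-1.18, SE 0.35, adjusted p = 0.027), Prdm1, a factor of photoreceptor precursors (-1.15, SE 0.35), Slc24a2 (-1.02, SE 0.27) and Otop3 (-2.16, SE 0.32) were also lower in Chrnb4, and Gnat1 was at least 4.07 higher (1.26% of all genes were called higher). Slc24a1 was called lower (-3.27) and Cngb1 higher (3.78) on the deposited values, but neither with the floor (-0.30 and 1.84). The batch label covers Chrnb4 and not d4, so batch and line cannot be told apart in this comparison.

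The difference between both cone-against-rod contrasts was tested directly, which gave 2 of the 9 genes, where 1.83% of all genes were called. Cngb3 exceeded b2 1st by 3.64 in Chrnb4, and the later b2 sets by 5.76 in d4, a difference of -2.12 (SE 0.52, adjusted p = 0.016). The Cngb3 means of b2 2nd and b2 single lay at or below the floor, and with the floor the difference was -1.72 (adjusted p = 0.019). Part of it is the difference between the 2 cone lines, -1.46, whose call was lost when certain single arrays were left out. The direct test was not repeated with arrays left out. Pde6c was the other gene called, but all its rod arrays lie at or below the floor, so its contrasts are known only as at least 6.00 in Chrnb4 and at least 7.67 in d4. Their difference is then that between the 2 cone lines, -1.67, and no separate result.

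**Figure D3:**
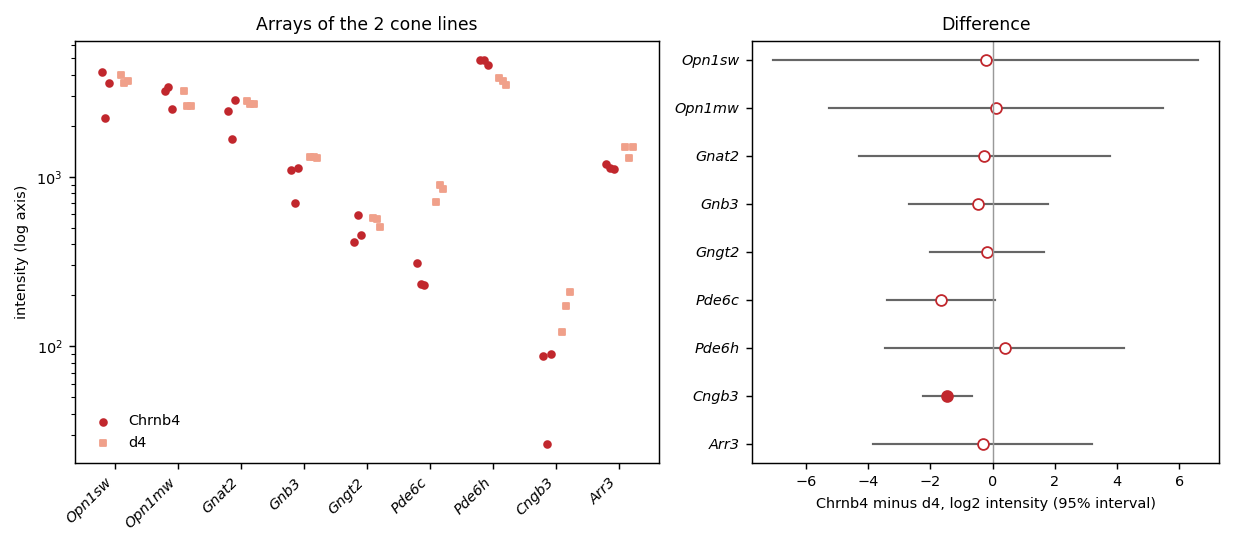
Left, intensity on a log axis of the 9 genes in the 3 arrays of Chrnb4 (circles) and of d4 (squares); right, the difference Chrnb4 minus d4 in log2 intensity with its 95% interval, filled where called. Pde6c, at 231 to 309 units in Chrnb4 and 709 to 894 in d4, and Cngb3, at 26.7 to 90.1 and 121 to 210.0, are the genes whose differences lie farthest from 0.

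The third comparison used the line as the unit and set the 2 cone lines against the 19 lines that are not photoreceptors. All 9 genes were higher in cones, with 2.04% of all genes called higher. The smallest difference was that of Cngb3, 4.64 (SE 0.48, adjusted p = 7.9e-06), and the largest bound was that of Pde6h, at least 9.69 (13.26, SE 1.92, as deposited). With 1 cone line left out, Opn1sw and Gnb3 no longer passed: without Chrnb4 they were 12.79 (adjusted p = 0.095) and 5.71 (adjusted p = 0.057), and without d4 12.57 (adjusted p = 0.088) and 5.25 (adjusted p = 0.069). Within batch 1 alone Chrnb4 stands for the cones, and 7 of the 9 were called; Opn1sw was 15.35 (adjusted p = 0.35) and Gnb3 4.67 (adjusted p = 0.051).

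Separation was also looked at array by array, for the 9 genes alone, so no share over all genes stands beside it. The lowest of the 6 cone arrays exceeded the highest of the other 72 for 7 of the 9 genes. For Pde6c these values were 231 and 6.87, and no set outside the cones had a mean above the median of all values, so Pde6c passed the filter on dim genes only through the cone lines. For Gngt2 they were 411 and 206 (Csf2rb2), for Opn1sw 2236 and 398 (Lhx4), and for Gnat2 1672 and 302 (Lhx4). The groups overlapped for Gnb3, whose lowest cone array (698) lay below the highest mGluR6 array (943), and for Cngb3, 26.7 against 28.1 in Lhx4.

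The rod line against the same 19 lines gave 0 of the 9 genes in limma, where 4.28% of all genes were called; 3 of the 9 (Gngt2, Pde6c and Arr3, all lower) had an unadjusted p below 0.05. The differences with the floor ran from -1.16 (Gngt2) to 2.24 (Pde6h), and the nearest to a call without it was Pde6c (-1.64, adjusted p = 0.063), whose rod values lie below the floor. As there is 1 rod line, the model assumes that it varies as lines of the other classes do.

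Among the lines of the inner retina, Gnb3 was high in the bipolar lines as well as in cones. Its arrays had 943, 922 and 809 units in mGluR6, 572, 568 and 506 in Kcng4, 526, 654 and 646 in Pcp2 and 571, 547 and 597 in Lhx4, against a lowest value of 0.0729, a median of 11.9 and a highest of 369.6 (Drd4) in the 51 arrays of the other 15 inner lines. No array of the other lines reached the bipolar range. The 7 bipolar markers measured summed to 825 to 2515 units in the bipolar lines, against 102 to 209.7 in Chrnb4 and 185 to 341 in d4. The difference was 5.85 (SE 0.91, n = 4 lines against 15, adjusted p = 0.00047), with 1.73% of all genes called higher. In ON bipolar cells a beta subunit pairs with the G protein of the mGluR6 receptor, which closes their transduction channel.

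Gnb1 ran the other way in the same lines. It was at or below 0.0671 units in all Kcng4 arrays and at or below 2.05 in all Lhx4 arrays, and reached 43.9 in 1 mGluR6 array and 12.1 and 16.2 in 2 Pcp2 arrays, against a median of 69.4 in the other inner lines. The difference was at least -3.32 (-6.48, as deposited, adjusted p = 0.002). By line, Gnb3 was thus highest in d4, Chrnb4 and the 4 bipolar lines, in which Gnb1 was low, while the rod line had the highest Gnb1. Drd4 also had low Gnb1, at or below 3.05, with Gnb3 at 369.6, 64.0 and 45.8, and all 7 bipolar markers had means above the median there, with sums of 297 to 1059 units that overlap those of the bipolar lines. Their part in the Drd4 values was not tested.

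**Figure D4:**
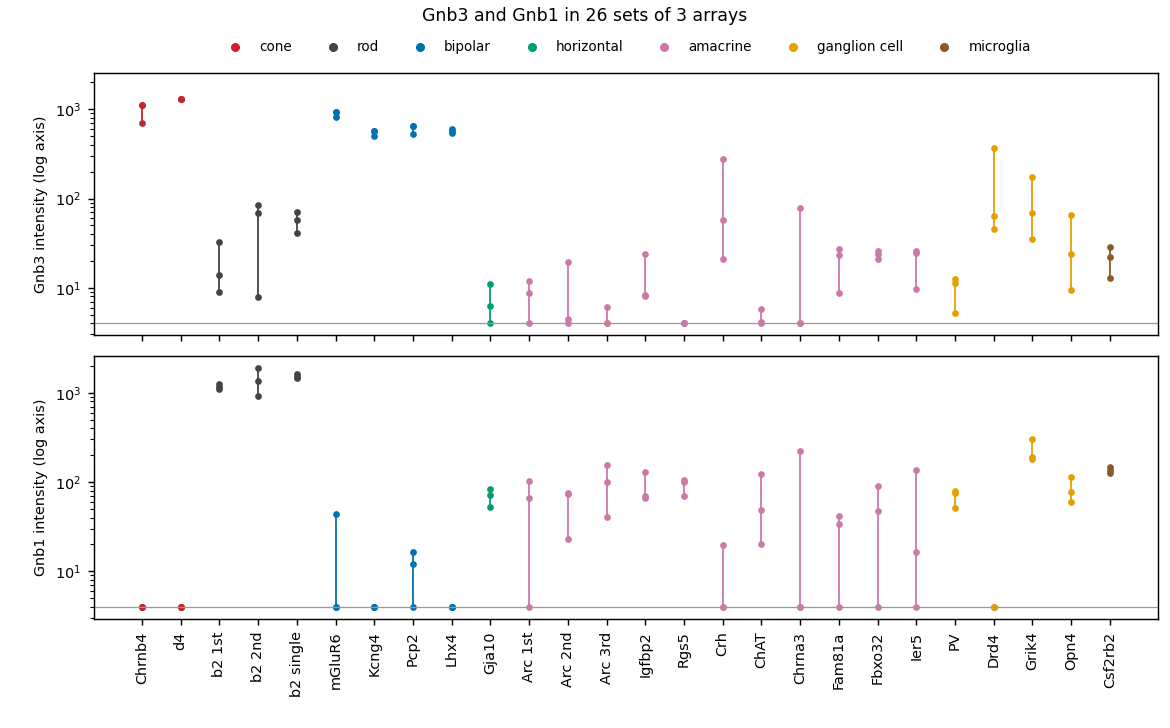
Intensity on a log axis of Gnb3 (top) and Gnb1 (bottom) in 26 sets, with 1 point per array, a line from the lowest to the highest, and the floor of 3.99 in grey. Cone and bipolar sets have 506 to 1312 units of Gnb3, whereas the rod sets have at most 85.3 units of Gnb3 and 922 to 1884 of Gnb1.

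Gnat2 was the other gene called higher in bipolar lines, by at least 3.65 log2 units (6.09, SE 1.31, as deposited, adjusted p = 0.0063). It had 218, 249 and 302 units in Lhx4, 131, 96.0 and 69.4 in mGluR6, 20.4, 44.3 and 53.2 in Kcng4 and 16.9, 34.1 and 32.4 in Pcp2. All 12 bipolar arrays exceeded the floor, against 9 of 51 in the other inner lines. The same bipolar arrays of mGluR6, Kcng4 and Pcp2 had Opn1sw, Pde6c, Pde6h and Arr3 at or below the floor. Within batch 1 alone Gnb3 was 6.02 (adjusted p = 0.081) and Gnat2 6.15 (adjusted p = 0.11) higher in bipolar cells, and within batch 3 alone 5.61 (adjusted p = 0.056) and 6.24 (adjusted p = 0.061), differences close to the pooled ones that no longer passed. Pde6c and Arr3 were called lower on the deposited values (-1.15 and -4.81), with 2.32% of all genes called lower, but with the floor neither was called and Arr3 differed by -0.67.

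The lines mGluR6 and Pcp2, here called the ON bipolar lines, were set against Kcng4 and Lhx4. Whether Kcng4 or Lhx4 also hold ON cells was not tested. The batch labels split with this contrast, 2 (mGluR6) and 1 (Pcp2) against 3, so batch and line cannot be told apart. Cngb3 was the single call, -1.23 (SE 0.28, adjusted p = 0.0031), with 0.94% of all genes called lower. It had 2.44 to 3.30 units in mGluR6 and 3.81 to 4.05 in Pcp2, against 3.60, 28.1 and 26.2 in Lhx4 and 3.53 to 5.35 in Kcng4. Of the 12 arrays, 2 of Lhx4 stood apart. Without replicate 2 of Lhx4 the difference was -0.98, short of the fold required, and with batch as a term it was 0.090. Gnb3 and Gnat2 were not called between these lines (0.39 and -0.93).

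When each of the 19 inner lines was set against the other 18, contrasts which share their arrays, 15 of 171 values were called higher and 9 lower, against 2.56% and 2.98% over all genes. Of the 9 lower calls 5 were of Gnb3, in Gja10, Arc, Rgs5, ChAT and Chrna3, where the other 18 lines include the bipolar lines with high Gnb3. The rest were Arr3 in Kcng4 and Pcp2, Cngb3 in Chrna3 and Gngt2 in Lhx4. None of that rest was called with the floor. Lhx4 had 4 of the 9 genes higher, where 2.48% of all genes were called higher. Opn1sw stood there at 398, 197 and 14.1 units, at least 4.35 log2 units above the other lines (adjusted p = 0.017 without the floor), and Gnat2, Gnb3 and Cngb3 were also higher. Gngt2 was called lower there on the deposited values (-1.91, adjusted p = 0.046) and not with the floor (-0.70). In the same arrays Opn1mw was at most 0.355, Pde6h at most 1.76 and Pde6c at most 2.32 units, and Arr3 exceeded the floor in 1 array, at 17.2. The list of 9 rod markers summed to 432 to 875 units in these arrays, with the means of Pde6a, Pde6b, Pde6g and Cnga1 at or below the floor. Its part in the result was not tested.

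The amacrine line Chrna3 showed another combination. Opn1mw had 589, 451 and 281 units there, Pde6h 799, 330.0 and 591, and Arr3 311, 2.41 and 318, and these 3 genes were higher than in the other 18 lines by at least 5.84, 6.78 and 3.84 log2 units, with 3.12% of all genes called higher. Gnat2 had 157, 48.6 and 2.23 units, higher by at least 1.66, a call made only with the floor (3.12% of all genes were then called higher too). Opn1sw was at most 2.27, Gngt2 at most 3.27, Pde6c at most 2.89 and Cngb3 at most 2.59 units in the same arrays, all below the floor. Gnat2 was thus high in both Lhx4 and Chrna3, Opn1sw and Cngb3 were high in Lhx4, and Opn1mw and Pde6h in Chrna3. No array outside the cone lines had all 9 genes above the floor. Rod markers summed to 18.3 to 152 units in Chrna3, with the means of 7 of the 9 at or below the floor, Sag and Gnat1 among them, and their part was not tested.

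Some arrays of other lines also had members above the floor. In the ganglion cell line Drd4, Opn1mw had 499, 74.6 and 58.6 units (at least 4.05 above the other lines, with 4.23% of all genes called higher), while Pde6h, at 2.76, 3.29 and 159.9, was called on the deposited values and not with the floor. In Grik4 Opn1mw reached 442 in 1 of 3 arrays and Opn1sw 75.4 and 75.0 in the other two, and in Crh Opn1mw reached 153 and 229.6 and Gnat2 208 and 18.5. In Opn4 Opn1mw reached 56.9 and 36.7. Arrays of Drd4, Grik4 and Crh differed in which gene was high. Some markers of other cell types were also high in these lines. The 9 rod markers summed to 211 to 1278 units in Drd4, 44.0 to 167 in Grik4 and 289.7 to 2387 in Crh. Gnat1 had the highest mean of them in each line, and only 3, 1 and 2 of the 9 had means above the median. The means of Pde6a, Pde6b and Pde6g were at or below the floor in each. The 6 Müller glia markers summed to 1487 to 6052 units in Drd4, 884 to 3179.8 in Grik4 and 640.2 to 3399 in Crh, against 281 to 802 in Chrna3 and 185 to 644 in Lhx4. In the microglia line Csf2rb2 they summed to 2727 to 5025. Apoe had the highest mean of them in Drd4, Grik4 and Csf2rb2, and Glul in Crh. The 7 bipolar markers summed to 297 to 1059 units in Drd4, and in Grik4 the 5 markers of retinal pigment epithelium summed to 415 to 2335 and the 5 of microglia to 340.1 to 856. The part of these cell types in the values was not tested.

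Gngt2 had a second site outside the photoreceptors. The microglia line Csf2rb2 had 142, 178 and 206 units, 5.32 log2 units above the other 18 lines (SE 0.66, adjusted p = 1.3e-09, with 8.11% of all genes called higher), and no other inner array exceeded 24.2. The order of the lines was d4 and Chrnb4, whose arrays overlap, then Csf2rb2, then mGluR6 at 10.2, 24.2 and 24.1, whose arrays overlap those of Kcng4 at 11.2, 7.67 and 18.2. Gngt2 is known from immune cells as well as from cones. The 5 microglia markers summed to 5398 to 6469 units in Csf2rb2, while of the other members Arr3 had 5.99, 35.3 and 11.2 units and Pde6c at most 3.87. Arr3 was called higher there on the deposited values (4.03, adjusted p = 0.012) and not with the floor (1.24).

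**Figure D5:**
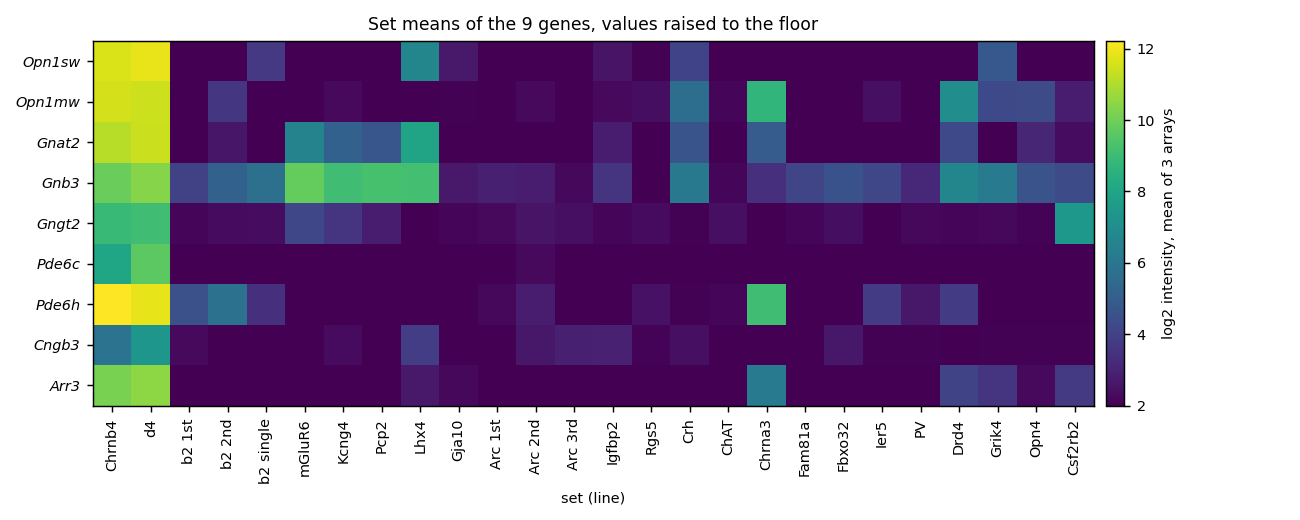
Mean log2 intensity of the 9 genes (rows) in 26 sets of 3 arrays (columns), with values raised to the floor of 3.99. The cone sets Chrnb4 and d4 are high in every row, the 4 bipolar sets in the rows of Gnb3 and Gnat2, Csf2rb2 in that of Gngt2, Lhx4 also in those of Opn1sw and Cngb3, and Chrna3 in those of Opn1mw, Pde6h, Arr3 and Gnat2.

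Repeated sets of 1 line gave a measure of how far these genes vary when measured again. Over the 6 contrasts between repeated sets of b2 and of Arc, 1 value of the 9 genes was called, Pde6c in b2 2nd minus b2 1st (-4.11, adjusted p = 0.0034, 2.08% of all genes called), where every value lies below the floor; with the floor it was not called. The Pde6h arrays of b2 2nd, at 93.7, 229 and 8.76, and of b2 single, at 10.2, 27.1 and 0.0251, nevertheless spread widely, though single minus 2nd was not called (-2.47 with the floor, adjusted p = 0.063).

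The genes whose pattern over the 22 line means was most like the mean of the 9 were Agr2 (r = 0.91), Gsc2 (0.89), Olfr1372-ps1 (0.88), Bspry, Tex28, Cdhr1, Fabp7, Clca1, Cckbr and Insl6 (0.84), in that order. These correlations describe 22 points measured on arrays normalised together, of which the 2 cone lines stand apart. Agr2 had a mean of 62.6 units in Chrnb4 and 90.3 in d4, and 4.30 in b2 and at most 4.91 in any other line. With the floor Agr2 (0.96), Fabp7 (0.94) and Olfr1372-ps1 (0.92) came first. Olfr1372-ps1 had 56.4 units in Chrnb4 and 409.7 in d4.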

How the data were processed

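The authors deposited a linear intensity for each probe set on each array, where log2 values had been assumed when the tests were designed; per the submitters' processing notes it was made with RMA in the oligo package (R 2.11.1, build mm9), and the sorted values of all 78 columns are identical (largest difference 0). Array number limits the precision. Log2 was taken. Of 22347 probe sets 19446 carry 1 symbol, 735 several and 2166 are unlisted in the annotation used; the brightest probe set stood for a gene, and 15102 genes with at least 1 set mean above 9.01 were tested. Linear models with trended prior variance were fitted in limma 3.58.1 (R 4.3.3), on 78 arrays with 1 mean per set or on 22 line means in 7 classes, with Benjamini-Hochberg adjustment over all tested genes; p-values of set contrasts measure only how replicate arrays vary. Alternatives covered the filter, cyclic loess, probe set choice, trend, floor, replicate block, batch, and arrays, sets and lines left out. The genes and lists were chosen with earlier results of these data known: the 9 genes, the lists of counterparts, other cascade genes, factors and cone proteins, 10 genes of like pattern; single inner lines were picked for description after their values were seen. Replicates of equal number in different sets correlated at a mean residual r of 0.000207, so numbers do not pair arrays. Not all rod genes of the lists are analysed here. The models were tested on simulated data. Promoters and figures used python 3.11.15, pandas 2.3.3, numpy 2.4.6 and matplotlib 3.10.9.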

Additional observations from a re-analysis of the deposited data

Results flagged for a closer look

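In groups of lines of 1 class, or of the arrays of a line with repeated sets, 15 of 45 groups checked had a value that stood apart from the others by Dixon's test on values raised to the floor; chance flags about 1 in 20 groups, and where all other values lie at the floor any value above it stands apart. Among bipolar lines Lhx4 was highest for Opn1sw (103), Cngb3 (14.3) and Arr3 (6.49), and Kcng4 for Opn1mw (4.72). Among amacrine lines Chrna3 was highest for Pde6h (538) and Arr3 (73.4), Crh for Opn1sw (16.6) and Arc for Pde6c (4.24). Among ganglion cell lines Grik4 was highest for Opn1sw (28.3) and Opn4 for Pde6c (4.00, close to the floor). Of the 9 b2 arrays, replicate 3 of b2 single stood apart for Opn1sw (134) and replicate 1 of b2 2nd for Gnat2 (14.7). Of the 9 Arc arrays, replicate 3 of Arc 2nd stood apart for Opn1mw (6.73), Pde6c (6.87) and Pde6h (21.9).

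The contrast of Chrnb4 with b2 1st and that of d4 with the later b2 sets differed for Cngb3 by -2.12 (adjusted p = 0.016), by a test of the difference in limma. With the floor this was -1.72 (adjusted p = 0.019), of which the difference between the cone lines, -1.46, is a part. For Pde6c the same test gave -4.85 (adjusted p = 0.012), but its rod arrays all lie at or below the floor, and with the floor the difference, -1.67, is that between the cone lines alone.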

How the results depend on the processing

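All 9 genes stayed higher in cones than in rods in every array fit run, and with batch as a term Opn1sw was 16.98 higher (adjusted p = 0.052). Raising values to the floor gave 2 calls in place of 1 between Chrnb4 and d4, 2 in place of 1 for ON against other bipolar lines (Opn1sw, -2.35), 2 in place of 4 for bipolar against other inner lines and 0 in place of 1 for repeated sets. With batch as a term the ON bipolar contrast gave 0 member calls and 93 genes in all in place of 277, with Gnb3 at -1.41 and Cngb3 at 0.090. Without the 4 inner lines of low array agreement, chosen after the data were seen, it gave 0 (Opn1sw 1.76, Gnat2 0.47), rods against non-photoreceptor lines gave 3 in place of 0, and Opn1sw lost its call in Chrnb4 minus b2 1st (adjusted p = 0.23) and d4 minus later b2 (adjusted p = 0.17). Rods in batch 1 alone gave 1 member and 998 genes in place of 646, and cyclic loess 429. Bipolar lines in batch 1 alone gave 0 members and 65 genes in place of 612, and in batch 3 alone 1 member; batch 2 alone leaves no residual degrees of freedom and was not run. With set means as units, cone minus rod called 814 genes in place of 1618. Cyclic loess turned Opn1mw in Chrnb4 minus d4 to -0.090, and leaving out replicates gave -0.41 to 0.045 for Opn1sw there, the last without replicate 2 of Chrnb4. The cause of these changes was not tested, and fits on fewer lines or sets have fewer units.

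With 1 array or line left out, member calls ranged from 0 to 1 for Chrnb4 minus d4 (520 to 823 genes in all) and for the ON bipolar contrast (260 to 373), from 7 to 9 for cones against non-photoreceptor lines (408 to 880), from 0 to 1 for rods against them (562 to 796) and from 2 to 4 for bipolar lines (483 to 782). They were 9 throughout for cone minus rod (1537 to 1744), Chrnb4 minus b2 1st (1023 to 1350) and d4 minus later b2 (1393 to 1868). With the replicate number as a block, cone minus rod called 9 members and 1617 genes and Chrnb4 minus d4 1 member and 752 genes, and no count moved by over 1.5 times; line means hold every number once, so no block applies to them.

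The mean log2 value of Opn1sw is the lowest of all 15102 tested genes, and its prior variance (155) set its wide SE on deposited values. The floor removes this. Both cone lines were measured as 1 set each, so how far a cone line varies when measured again is unknown.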

Other observations

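Some genes of cones outside the cascade, and rod genes, stood in bipolar lines too; these genes were singled out once their values were known. Kcne2, a potassium channel subunit, had 354 to 377 units in mGluR6 and 242 to 323 in Pcp2, and 1.24 to 20.3 in Kcng4 and 0.879 to 5.0 in Lhx4. In cones it had 498 to 752 units in Chrnb4 and 934 to 1031 in d4. Ccdc136 had 224 to 269 units in mGluR6 and 233 to 249.8 in Pcp2, values that overlap the 224 to 263 units of Chrnb4, and 39.7 to 48.1 in Kcng4 and 58.4 to 97.3 in Lhx4. Gngt1, the rod transducin gamma subunit, had 338 to 571 units in Kcng4 and 288 to 499.9 in Lhx4, against 0.615 to 55.8 in mGluR6 and 88.3 to 137 in Pcp2.

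Guca1a, an activator of the guanylate cyclase of photoreceptors, had 198 to 912 units in the amacrine line Chrna3, where Opn1mw, Pde6h and Arr3 were high, and 196 to 435 in the microglia line Csf2rb2, while Rcvrn was at most 3.29 units in Chrna3 and 1.44 in Csf2rb2. Rxrg had 26.2 to 51.9 units in Grik4 and 9.32 to 37.2 in Drd4, and at most 3.39 in Chrna3.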
